A study of Homo sapiens with 5 samples.

Results

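The 153 regions described here are the sites on the long arm of chromosome 19 at which the BG4 antibody enriched chromatin in at least 2 of 4 replicates. LNCaP, an established prostate cancer cell line, was cross-linked, and fragments bound by BG4, an antibody fragment that recognises G-quadruplexes, were sequenced. The 4 BG4 replicates each have a peak list on the hg19 build, and 1 input without a list of its own served as background. The labels name no treatment. They do not tell whether the replicates were separate cultures, so the spread of the replicates may be technical. Peaks of the 4 lists that overlapped by 1 bp or more were merged, and merged regions starting at 26 Mb or beyond with peaks of at least 2 lists were kept. They are 4.31% of the 3554 such consensus regions on chromosomes 1 to 22, X and Y. The choice of at least 2 lists leans on the longest list, replicate 1, and without it 93 regions were left.

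A G-quadruplex (G4) is a stack of planar guanine tetrads that a single DNA strand can form where it carries several closely spaced runs of guanines. In human chromatin such structures have mostly been mapped to accessible, GC-rich promoters. Chromosome 19 is the most gene-dense human chromosome, and its long arm carries large tandem arrays of genes for C2H2 zinc finger proteins with a KRAB domain. Many of these proteins bind transposable elements and recruit the corepressor TRIM28, and the arrays themselves are known for broad H3K9me3, a mark of heterochromatin. The arm is divided here into the arrays in the 3.5 Mb from 35 Mb on, at 44 to 45 Mb and at 52 to 59 Mb, called the clusters, and the rest. The limits are round numbers, so the clusters also hold genes of other families.

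The order of genes in RefSeq on GRCh38.p14 shows how the arrays are built. Of 803 protein-coding genes on the long arm, 181 (22.5%) have a symbol of the zinc finger list (ZNF, ZFP, ZSCAN, ZIM or ZIK). Of these 181, 164 have another gene of the list as a direct neighbour, 120 have one on both sides, and the longest unbroken run holds 24. The letters a G4 needs were searched in the RefSeq promoter windows, 250 bases before to 50 after a gene's start. The motif was at least 4 runs of GGG or longer with 1 to 7 bases between them, on either strand. It was found in 35 of 156 zinc finger windows (22.4%, 95% Wilson interval 16.6% to 29.6%) and in 183 of 522 windows of other genes of the arm (35.1%, 31.1% to 39.2%). The median GC content of both sets was close, 61.5% and 62.3%. Over all protein-coding genes with a window, 30.4% held the motif, and over all 35116 windows, those of non-coding genes included, 25% did. The windows are on another build than the peaks and were not placed against them, so which of these promoters lie in a BG4 region was not analysed here.

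These stretches show what the motif looks like, for 2 zinc finger genes and 1 other gene of the arm with many guanine runs before the start, as examples and not as a comparison. Each is written 5′ to 3′ on its guanine-rich strand, which is the strand of the gene except for ZNF836, and runs of 3 or more guanines are in capitals. The sequences are from RefSeq on GRCh38.p14.
ZNF865: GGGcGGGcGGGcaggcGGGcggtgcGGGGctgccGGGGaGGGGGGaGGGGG
ZNF836: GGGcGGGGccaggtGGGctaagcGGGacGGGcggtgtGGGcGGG
BCAM: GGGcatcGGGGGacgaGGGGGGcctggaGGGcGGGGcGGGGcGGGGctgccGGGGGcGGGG
BCAM encodes a laminin receptor of the Lutheran blood group. The lower share of zinc finger windows holds for runs of GGG: with runs of GG or longer, 95.5% of zinc finger windows and 95.6% of the other windows held a match.

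The smaller gene families of the arm differed in the same count. None of 24 windows of the leukocyte receptor list (LILR, KIR and LAIR genes, which encode receptors of immune cells, and the neighbouring NLRP genes) held the motif, with an upper Wilson limit of 13.8%. It was found in 1 of 13 windows of pregnancy-specific glycoprotein and CEACAM genes, in 4 of 13 kallikrein windows, which include secreted prostate proteases, and in 2 of 5 cytochrome P450 2 windows. The apolipoprotein genes had it in 3 of 4 windows and the ribosomal protein genes in 3 of 6. These counts are small and their intervals wide. The leukocyte receptor windows had a median GC content of 53.7% and the pregnancy-specific and CEACAM windows 54.7%, against 62.3% over the arm. The cytochrome P450 2 windows were close to these, at 55.0%. Kallikrein windows had 60.7%, apolipoprotein windows 62.5% and ribosomal protein windows 63.5%. The part of GC content in the motif counts was not tested.

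**Figure D1:**
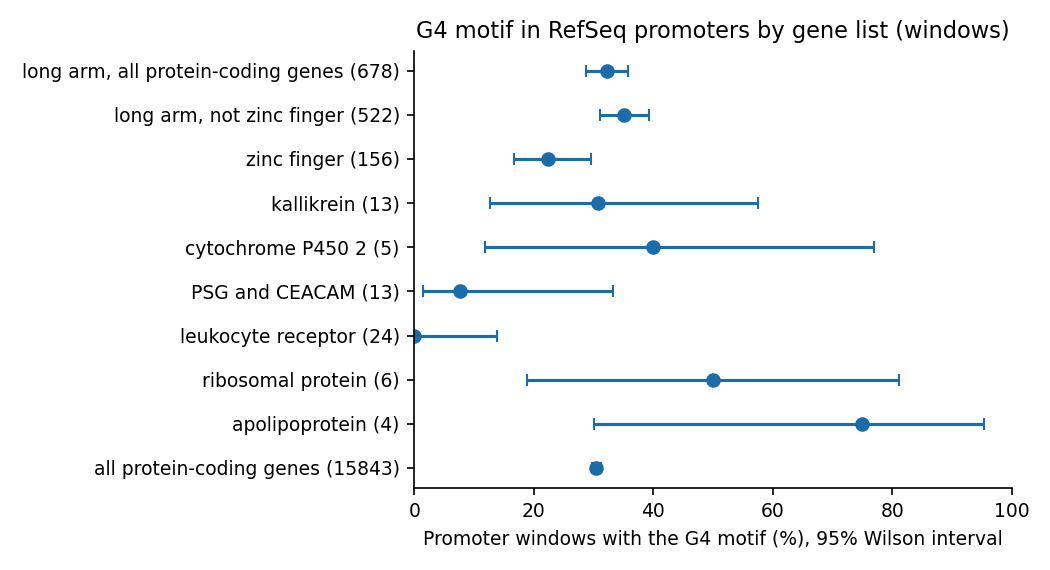
Share of RefSeq promoter windows holding the G4 motif (x axis, percent) for the gene lists of the long arm, with the number of windows in brackets. Points are shares and bars 95% Wilson intervals; the zinc finger list lies at 22.4% and the other genes of the arm at 35.1%.

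The long arm was dense in BG4 regions, but its regions were of average strength. It held 4.62 consensus regions per Mb over 33.09 Mb, against 1.147 per Mb in the rest of the genome, a ratio of 4.03. The peaks of the single lists gave ratios of 3.75, 5.02, 3.90 and 4.52 for replicates 1 to 4 (4.30 ± 0.587, SD, n = 4). All 4 lists lay above 1 (two-sided exact sign-flip permutation test over the lists, p = 0.13, the smallest that 4 lists allow). The short arm was denser still, with 188 regions at 7.25 per Mb. The long arm reached 0.638 times that density, and 0.681 ± 0.0529 times in the single lists (SD, n = 4), below 1 in 4 of 4 (exact sign-flip permutation test, p = 0.13).

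Of the 311 merged regions of the long arm, 49.2% were called in at least 2 lists, against 47.3% over all chromosomes. A further 158 were called in 1 list only, 113 of them in replicate 1, which had the deepest pull-down and the longest list. Among the 153, 66 were called in 2 lists (43.1%), 37 in 3 (24.2%) and 50 in all 4. Over all consensus regions, 46.0% were called in 2 lists and 29.1% in 3. The share in all 4 lists was 32.7% (95% Wilson interval 25.8% to 40.5%), against 24.9% of all consensus regions. The short arm had a like share, 30.3% (24.2% to 37.2%). Strength was close to that of the genome. The fold is the deposited ratio of pull-down reads at the summit to the local background, with 1 added to both. The percentile ranks it among all peaks of its list. The median percentile of a region was 55.5 on the long arm, 56.0 over all chromosomes and 62.9 on the short arm. Of the 153, 3 (1.96%, 95% Wilson interval 0.669% to 5.61%) were among the 100 strongest consensus regions of the genome. The share over all consensus regions, 2.81%, lies within that interval. This order goes by the number of lists first. The 100 were therefore drawn from the 886 regions called in all 4 lists, of which 50 lie on the long arm.

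Which lists called a region followed the length of the lists. Replicate 1 called 147 of the 153, replicate 3 called 125, replicate 4 called 92 and replicate 2 called 79. Of the 66 regions in 2 lists, 40 were in replicates 1 and 3. None of the 37 regions in 3 lists lacked replicate 1, while 21 of them lacked replicate 2. Counts by replicate are not given here for all chromosomes, so they cannot show a trait of the arm. The median of the mean fold was 6.40 for regions in 2 lists, 7.03 for those in 3 and 8.41 for those in 4. These regions were narrow. Their median width was 461 bp, with a range from 273 to 1191 bp, and together they covered 77.3 kb.

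Along the arm the regions rose from near absence before 35 Mb to a higher but uneven density beyond it. No region started between 26 Mb and position 27731911, and the 9 Mb up to 35 Mb held 8 regions, 0.889 per Mb. That length includes any assembly gap, and the bin from 26 to 27 Mb had no peak of any list. Counted from the first peak of the arm to 35 Mb, the density was 1.10 per Mb over 7.27 Mb. Of the 34 bins of 1 Mb, 5 held no region, those starting at 26, 28, 29, 31 and 32 Mb, with 5 peaks of single lists between them. The widest distance between neighbouring starts, 2831 kb, began at 30335421 in the same stretch. The last consensus region of the short arm lay at 19887109 to 19887668, so the low stretch spans the centromere on both sides. The stretch between the first cluster and 44 Mb held 36 regions at 6.55 per Mb, and that from 45 to 52 Mb held 52 at 7.43 per Mb. Neither was even. In the first, the bin from 39 to 40 Mb held 10 and that from 43 to 44 Mb held 1. In the second, the bin from 48 to 49 Mb held 3 and that from 49 to 50 Mb held 14. The last 0.0874 Mb of the arm, beyond the cluster end at 59 Mb, held 5 regions.

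By number of regions, the fullest bins lay both in and outside the clusters; the short last bin, with 5, is full for its length. The bin from 49 to 50 Mb held 14 regions, those from 36 to 37 and from 50 to 51 Mb held 12 each, that from 39 to 40 Mb held 10 and that from 56 to 57 Mb held 9. These 5 bins took 37.3% of all regions of the arm, while the median bin had 3.5. The neighbouring bins at 49 and 50 Mb had different values, and their difference was not tested. In the first, 10 of 14 regions were called in 2 lists and 3 in all 4. In the second, 10 of 12 were called in all 4 lists, and the median fold percentile was 85.8 against 58.6. Over all consensus regions, 24.9% were in all 4 lists. Which genes lie in these bins was not analysed here.

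**Figure D2:**
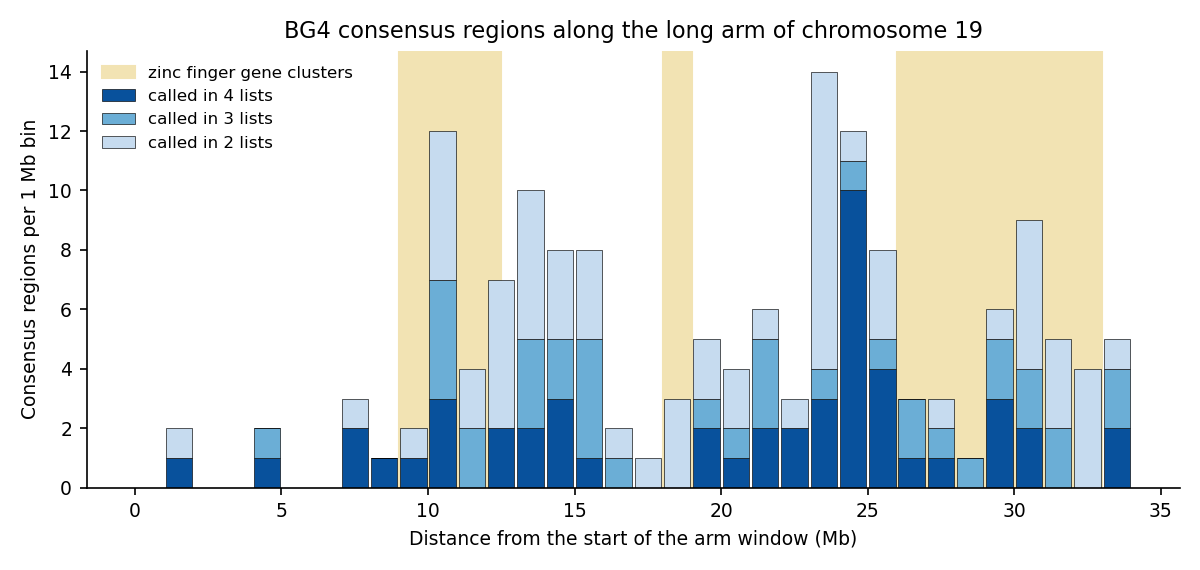
Consensus regions in 1 Mb bins (y axis, number) by distance from the 26 Mb start of the arm window (x axis, Mb), coloured by the number of lists that call them, with the zinc finger clusters shaded. The first 9 bins hold 8 regions in all, the highest bin has 14, and the last bin covers only 0.0874 Mb.

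By the main count, the zinc finger clusters were about as dense in BG4 regions as the rest of the arm taken whole. They held 52 regions over 11.5 Mb, 4.52 per Mb, and the rest held 101 over 21.59 Mb, 4.68 per Mb, a ratio of 0.967. The clusters thus took 34.0% of the regions (95% Wilson interval 27.0% to 41.8%) and 34.8% of the length. In the single lists, replicate 1 had 8.70 peaks per Mb in the clusters and 7.41 in the rest, a ratio of 1.17. Replicate 3 had 4.61 and 4.59, close to equal. The ratio was 0.891 in replicate 2 and 0.771 in replicate 4, so 2 lists lay above 1 and 2 below. Their mean of 0.960 ± 0.171 (SD, n = 4) did not differ from 1 beyond the spread of the lists (two-sided exact sign-flip permutation test, p = 0.75).

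That near equality depended on the sparse stretch before 35 Mb, which counts as rest, and on how strictly peaks were called. In an alternative added after the data were seen, the rest was limited to the arm from 35 Mb on, where it held 93 regions at 7.39 per Mb. The clusters then had 0.612 times the density of the rest. The single lists gave 0.765, 0.613, 0.638 and 0.513 for replicates 1 to 4 (0.632 ± 0.104, SD, n = 4), all 4 below 1 (exact sign-flip permutation test, p = 0.13). Against the whole rest, the ratio also moved with how strictly regions were called. It was 0.845 for regions in at least 3 lists and 0.530 for those in all 4. At a −log10 q of at least 5 it was 0.742, and with all lists shortened to the same number of peaks 0.732. With 1 replicate left out it ran from 0.851 to 0.979, and with the arm counted from its first peak it was 0.889. With clusters widened by 0.5 Mb at each end it was 1.137.

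The 3 clusters were not alike. The first cluster, from 35 Mb on, held 18 regions, 5.14 per Mb, of which 4 were called in all lists. In the bins it spans, 12 regions fell between 36 and 37 Mb, against 2 in the bin before and 4 in the bin after. Its peaks had 1.43, 1.15, 1.18 and 0.845 times the density of the rest in replicates 1 to 4, a mean of 1.15 ± 0.238 (SD, n = 4; exact sign-flip permutation test, p = 0.375). The cluster from 52 to 59 Mb held 31 regions, 4.43 per Mb, 7 of them in all lists. It started sparsely, with 3, 3 and 1 regions in its first 3 bins, and then rose to 6, 9, 5 and 4. Its mean ratio to the rest was 0.930 ± 0.168 (SD, n = 4; exact sign-flip permutation test, p = 0.375).

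The middle cluster, from 44 to 45 Mb, was the sparsest of the clusters. It held 3 regions, each called in 2 lists: R116 at 44038030 to 44038464, R95 at 44100198 to 44100546 and R135 at 44172562 to 44172969. Here and below, R and a number give a region's rank on the arm, by the number of lists and then by the median fold percentile. All 3 lay in the first 0.2 Mb of the cluster, and their folds ran from 4.63 to 7.99. The ratio of its peak density to that of the rest was 0.540, 0.732, 0.436 and 0.296 in replicates 1 to 4, below 1 in all 4 (exact sign-flip permutation test, p = 0.13). It rests on 4, 2, 2 and 1 peaks. Low counts were not confined to this cluster: the bins from 42 to 43 and from 43 to 44 Mb, outside it, held 2 and 1 regions. The bin after it, from 45 to 46 Mb, held 5.

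By fold, peaks in the clusters were somewhat weaker than peaks in the rest of the arm. For replicates 1 to 4 the cluster medians of fold were 6.24, 6.17, 6.39 and 6.08, and those of the rest were 6.91, 6.41, 6.81 and 7.11. Divided by each other they gave a mean of 0.915 ± 0.0468 (SD, n = 4) and lay below 1 in 4 of 4 lists (two-sided exact sign-flip permutation test, p = 0.13, the smallest possible). The median background at the summit was 1.71 times the genome level in both parts in replicate 1 and 1.92 times in both in replicate 2. In replicate 3 it was 1.92 in the clusters and 1.71 in the rest, and in replicate 4 it was 1.91 and 1.92. The part of the background in the lower fold was not tested. Median reads at the summit were 16, 13.5, 17 and 14 in the clusters for replicates 1 to 4. In the rest they were 17, 16, 16 and 16, so by reads replicate 3 went the other way.

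**Figure D3:**
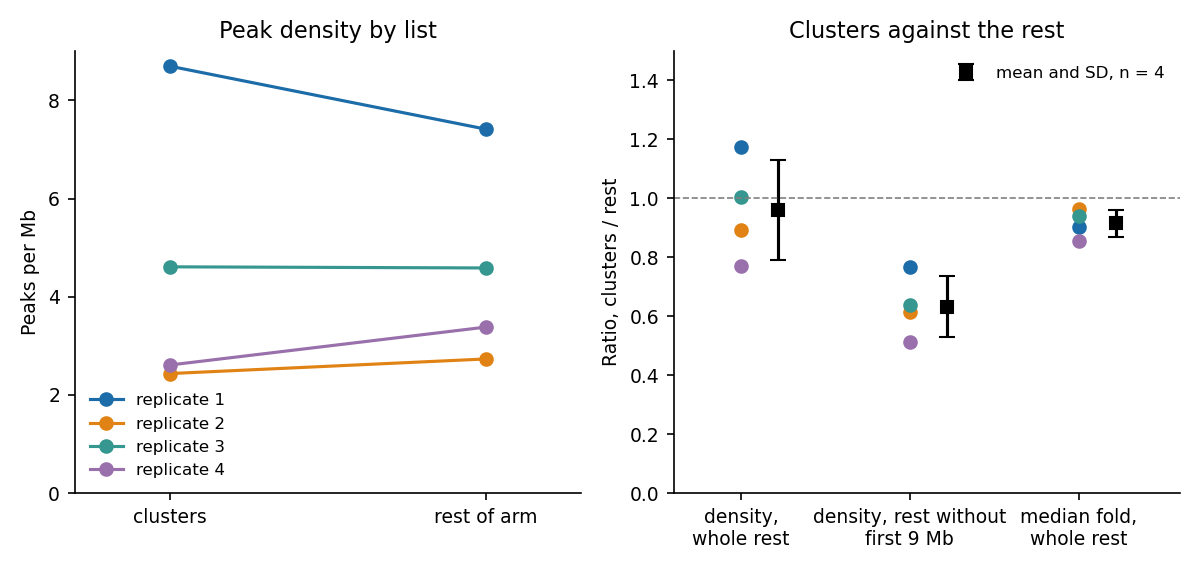
Left, peaks per Mb (y axis) in the clusters and in the rest of the arm, 1 line per replicate. Right, ratio of clusters to rest (y axis) for peak density with the whole rest, for peak density without the first 9 Mb of the arm, and for median fold, with points for replicates and squares with bars for mean and SD (n = 4); the means are 0.960, 0.632 and 0.915.

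Of the 50 regions called in all lists, 24 lay between 45 and 52 Mb, 10 of these in the single bin from 50 to 51 Mb. That stretch held 52 regions in all and had a median fold percentile of 71.0. The sparse stretch before 35 Mb held 5 of the 50 out of 8 regions, with a median percentile of 32.9. The stretch between the first cluster and 44 Mb, nearly as dense, held 8 of the 50 out of 36 regions, with a median percentile of 49.2. In the clusters, 11 of 52 regions were in all 4 lists (21.2%, 95% Wilson interval 12.2% to 34.0%), against 39 of 101 in the rest (38.6%, 29.7% to 48.4%), beside the 24.9% of all consensus regions. The 2 intervals overlap, and since regions of an arm are not replicates the difference was not tested. The median percentile was 51.9 in the clusters and 56.7 in the rest.

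**Figure D4:**
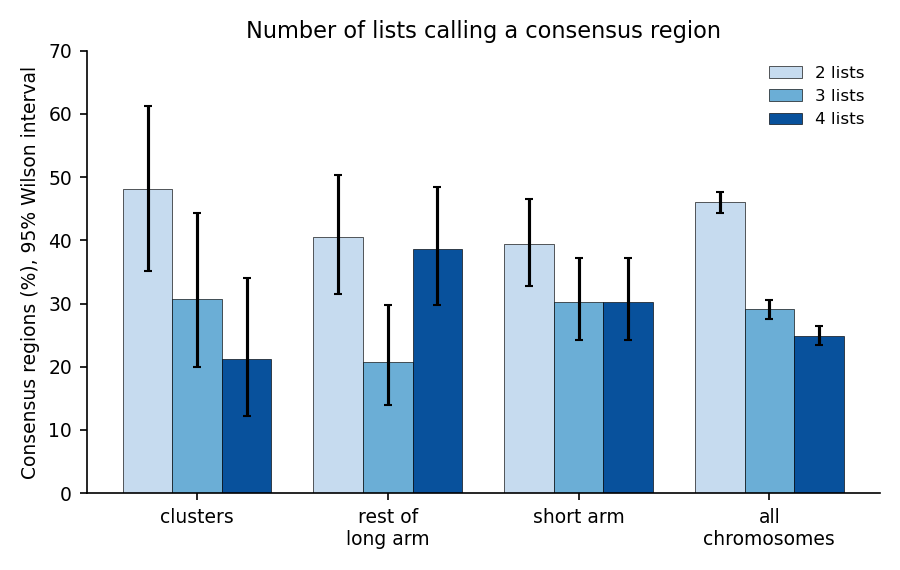
Share of consensus regions (y axis, percent, with 95% Wilson intervals) called in 2, 3 or 4 lists, for the clusters, the rest of the long arm, the short arm and all chromosomes. The share in 4 lists is 21.2% in the clusters and 38.6% in the rest of the long arm.

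Strength is ranked here first by the number of lists, so the regions named as strongest were all called in 4. A region called in 3, R51, had a percentile of 93.5, above that of R9. The strongest locus in this order was R1, at 48018237 to 48018879, outside the clusters. Replicates 1 to 4 gave it folds of 13.9, 13.5, 12.6 and 13.3 (13.3 ± 0.544, SD, n = 4). It varied least between lists of the 12 strongest. Its summit held 25, 21, 21 and 22 reads over a background equal to the genome level, and the summits of the 4 lists lay within 75 bp. It ranked 63rd among the consensus regions of the genome. R2, at 47759736 to 47760926, was the widest region of the arm with 1191 bp, and its folds were 14.6, 10.2, 13.1 and 12. Its summits were spread over 379 bp.

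R3 and R10 form a pair. R3 lay at 50143326 to 50144002 and R10 at 50145030 to 50145566, with starts 1.70 kb apart, and both were called in all 4 lists. The folds of R3 were 14.2, 13.5, 11.9 and 7.86 in replicates 1 to 4, and those of R10 were 14.3, 10.6, 10.1 and 7.47. Replicate 4 was lowest in both. They lie in the bin from 50 to 51 Mb, as does R7, at 50887167 to 50887997. R7 held the highest fold of the arm in replicate 1, 18.9, and in replicate 3, 17.5, while replicates 2 and 4 gave 9.61 and 9.62. Its mean was 13.9 ± 4.99 (SD, n = 4), so replicates 1 and 3 stood apart from the other 2, although all 4 summits fell within 62 bp.

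The other strong loci outside the clusters were spread over the arm. R4, at 39832559 to 39833043, had folds of 17.0, 10.6, 10.1 and 12.2, with summits within 25 bp. R11, at 47137223 to 47137780, had 12.3, 9.18, 10.3 and 10.4 over the genome level of background. Both were highest in replicate 1. R6, at 41076268 to 41076983, had 11.3, 6.31, 11.8 and 12, and R12, at 40854167 to 40854615, had 12.9, 7.22, 9.41 and 13.4. In R6 and R12 replicate 2 was lowest and replicate 4 highest. R9, at 34850148 to 34850704, was the one strong region of the sparse stretch, with 11.5, 11.1, 11.1 and 6.29.

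R8, at 59010447 to 59011008, lay close to the end of the chromosome. Its folds were 14.8, 8.65, 13.5 and 9.77. With R35, R77, R85 and R148 it made up the 5 regions of the last 0.0874 Mb. Of these, R35 was also called in all 4 lists, with folds of 7.35, 5.87, 7.72 and 6.32. The outermost region, R85 at 59084139 to 59085055, was called in 3.

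Of the 12 strongest regions, 1 lay in a cluster. The clusters hold 34.0% of all regions of the arm, but 11 of the 50 called in all 4 lists, from which the 12 were drawn. The difference was not tested. R5, at 36422271 to 36422793, had folds of 13.2, 6.68, 10.7 and 14.0 in replicates 1 to 4 and held the highest fold of the arm in replicate 4. Its summit carried 27, 11, 20 and 26 reads at 1.26 to 1.28 times the genome background. The next in the clusters were R17, at 53606493 to 53607032, with folds of 10, 9.02, 10.6 and 4.38, and R20, at 55791263 to 55791910, with 14.3, 8.12, 12.6 and 6.22. In R17 and R20 replicate 4 was lowest, and the R17 peak of replicate 4 rested on 11 reads.

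Of the 8 cluster regions first in this order, 4 lay in the first cluster and 4 in the last. Cluster regions called in fewer lists had higher percentiles than some of them: R53 87.4, R55 83.9, R56 82.1 and R57 80.7, each in 3 lists, and R89 82 in 2, against 63.9 for R33. R26, at 36231335 to 36231962, had folds of 13.0, 6.18, 9.57 and 7.29, and R33, at 36504995 to 36505487, had 10.1, 6.38, 8.76 and 5.44. Together with R5 they lie within the dense bin from 36 to 37 Mb. R28, at 35632045 to 35632561, had 9.93, 7.37, 7.01 and 8.73, over a background of 3.21 to 3.41 times the genome level. R27, at 56632508 to 56633118, had 9.35, 7.19, 8.95 and 7.43, and R32, at 55850555 to 55851342, had 10.5, 6.41, 9.57 and 5.64. The mean folds of R26, R27, R28, R32 and R33 ran from 7.67 in R33 to 9.01 in R26. The order ranks regions called in all 4 lists by fold percentile. Lower folds than in the 12 strongest regions are therefore built in and tell nothing about the clusters. R20, also outside the 12, had a higher mean fold than R9.

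**Figure D5:**
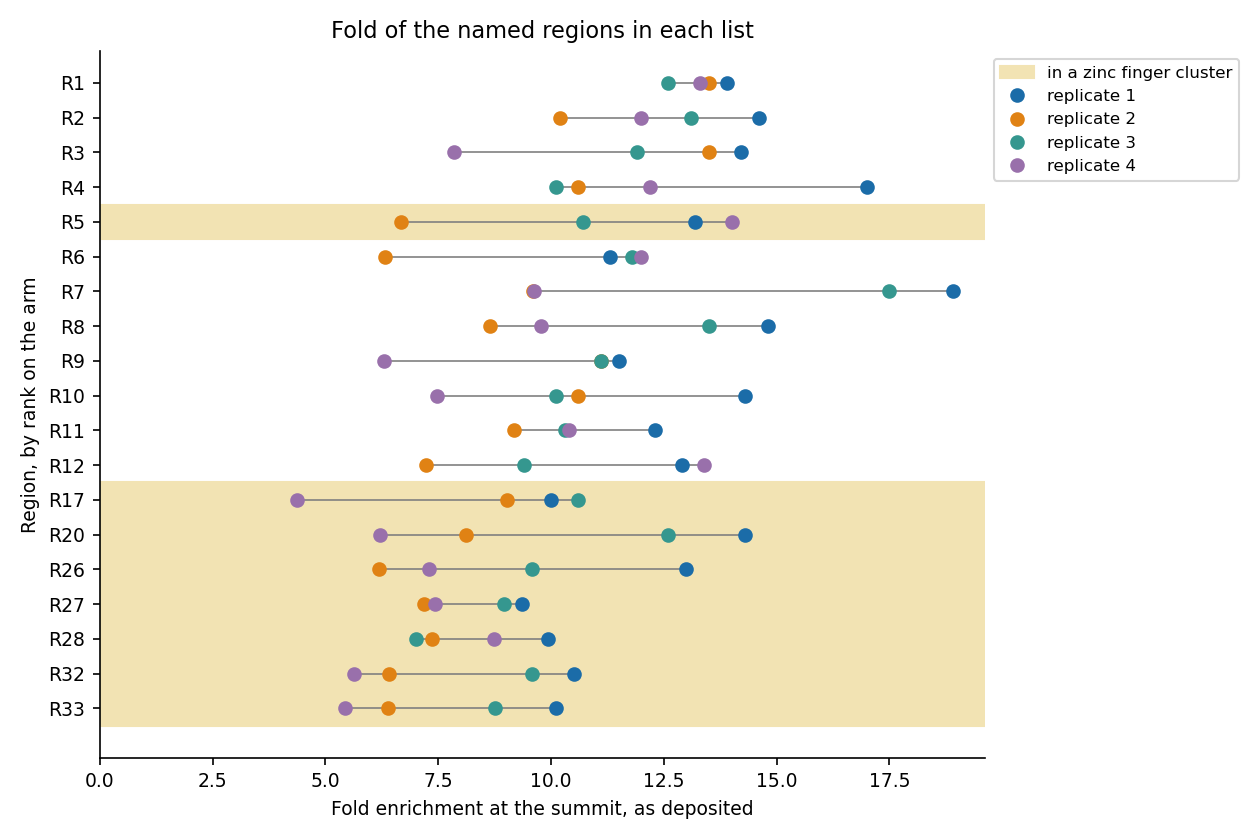
Deposited fold at the summit (x axis) of the 12 strongest regions of the arm and the 8 strongest in the clusters (y axis, by rank, clusters shaded), 1 point per replicate and a line from the lowest to the highest. R1 is the tightest, from 12.6 to 13.9, and R7 the widest, from 9.61 to 18.9, where the points of replicates 2 and 4 coincide.

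Across the 50 regions called in all lists, folds were ordered alike between lists to different degrees. Spearman's rho was 0.844 for replicates 1 and 3, 0.737 for replicates 1 and 2, and 0.469 for replicates 2 and 4. These are correlations over regions of 1 arm that share 1 input, and they serve as a description. Replicate 1 held the highest fold in 26 of the 50. The median coefficient of variation of fold over the lists was 19%. Summits lay within 88.0 bp of each other at the median and within 100 bp in 27 of the 50, with a largest range of 580 bp in R37.

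Neighbouring regions were seldom close. Starts followed each other at a median of 73.2 kb, 82.3 kb in the clusters and 68.8 kb in the rest. Of 152 neighbouring pairs, 16 had starts within 10 kb (10.5%, 95% Wilson interval 6.58% to 16.4%), against 9.09% on the short arm and 6.23% over all chromosomes. In the clusters 2 of 52 did (3.85%, 1.06% to 13%) and in the rest 14 of 100 (14%, 8.53% to 22.1%), and these intervals overlap. The share on the arm was 6.52% without replicate 1 and 5.81% for regions in at least 3 lists. The 3 largest groups held 3 regions each and lay outside the clusters. R111, R94 and R31 lay from 49652494 to 49655464, R19, R140 and R37 from 50372645 to 50381435, and R143, R54 and R119 from 40939771 to 40950917. Each group holds at least 1 region called in 2 lists only, beside 1 or more called in 3 or 4.

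A few members sat on high background. R50, at 27731911 to 27732438, was the first region of the arm, next to the centromere. Its folds were 1.62, 2.17, 1.86 and 2.03, with 428 to 459 reads at the summit, over 305 to 313 times the genome background. R152, 6.49 kb further on, had folds of 1.95 and 1.87 in replicates 2 and 4 over 188 and 183 times. R153, at 37779948 to 37780450 in the first cluster, had folds of 2.02 and 2.39 in replicates 1 and 3 over 17.6 and 17.1 times. These 3 had the lowest folds of the consensus regions of the arm, taking the best peak of each list. Other peaks went lower, down to 1.65 in replicate 2 and 1.43 in replicate 4. Whether repeat sequence or copy number sets the folds of these 3 regions was not tested. Without all peaks at 5 times the genome background or more, the arm held 142 regions, and the density ratio of clusters to rest was 0.959.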

How the data were processed

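Peaks came from BG4 ChIP-seq of LNCaP, 4 replicates with 1 list each; the input sample has no list. MACS2 2.1.1 called the peaks after Bowtie2 2.2.5 on hg19, per the submitters' processing notes, which also name SAMtools 1.11 and bcl2fastq 1.8.4 (settings: not given in the sources used here). Deposited lists give a fold enrichment at the summit, a ratio to the local background made by the authors' caller. In this ratio 1 is added to the reads and to the background. The genome level of background was 0.633 to 0.871 reads at a summit, so the fold lies well below the plain ratio there. The deposited −log10 p and −log10 q are of the same summits, and the deposited score is 10 times the −log10 q and was not used. The fold ranks peaks within its own list only.

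Summit reads and background were recovered from fold and p, as a whole number of reads giving back the deposited p within 0.001 on the −log10 scale, for 100% of peaks; background is given relative to the lowest, genome-wide level of each list. Pull-down depth was 2.48 to 3.43 reads per kb, with 6 or 7 reads at the weakest summit of a list, so single weak peaks are within counting error. Intervals cover counting error only.

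The peaks on the long arm numbered 260, 87, 152 and 103. Density is regions per Mb from 26 Mb to the last peak, assembly gaps included; the genome is taken from the first to the last peak of each chromosome. Ratios per list were tested by exact sign-flip permutation. Merging and recovery were tested on simulated data. Regions named are the 12 called in most lists with the highest median fold percentile, the first 8 of that order in the clusters, the highest peak of each list, the 5 densest and all empty 1 Mb bins and the 3 largest groups within 10 kb; other regions named (R35, R50, R51, R53, R55, R56, R57, R77, R85, R89, R95, R116, R135, R148, R152, R153) were picked after their values were seen. Members and lists were chosen with earlier results of these data known. Shares of regions at start sites and with G4 motifs were planned and not run, since no hg19 annotation or sequence was used here; the RefSeq promoter count on GRCh38.p14, in which 678 of 803 long-arm genes had a window, was added in their place. The software was scipy 1.17.1, pandas 2.3.3, matplotlib 3.10.9 and numpy 2.4.6 under Python 3.11.15.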

Additional observations from a re-analysis of the deposited data

Results flagged for a closer look

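In 2 of 31 sets of 4 list values, 1 replicate lay far from the other 3. Both are folds of single regions. Replicate 2 had a fold of 6.31 in R6, against 11.3 in the nearest list. Replicate 4 had a fold of 6.29 in R9, against 11.1 in the nearest. Chance gives such a value in about 1 of 20 sets, and 19 sets hold folds of named regions, picked by strength, where that rate need not hold.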

How the results depend on the processing

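The density ratios of the long arm to the genome and to the short arm, and the lower fold in the clusters, kept their direction under all alternatives run, at 3.89 to 5.36, 0.598 to 0.687 and 0.802 to 0.935. The density ratio of clusters to rest stayed below 1 under 15 of 16 alternatives, down to 0.530, and was 1.137 with clusters widened by 0.5 Mb. The number of regions was 87 in at least 3 lists, 50 in all 4, 82 when all lists were shortened to the same number of peaks, and 93 to 140 with 1 replicate left out, the lowest without replicate 1. The share called in every list was 43.5% to 53.8% with 1 replicate left out, since fewer lists had to agree. Neighbours within 10 kb made up 5.81% in at least 3 lists, 4.08% in all 4 and 6.52% to 9.49% with 1 replicate left out; within 5 kb they made up 6.58% and within 50 kb 40.1%. Of the 19 named regions, 17 were called in all 4 lists at a −log10 q of at least 5 and with lists of equal length; R17 and R33 were called in 3 under both. The rest from 35 Mb on, arm lengths between peaks and the omission of high background were added with the data already seen. Alternatives of the start-site and motif shares were not run. With 4 lists, the exact sign-flip permutation test allowed no p smaller than its minimum, p = 0.13 when rounded.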
